A study of Homo sapiens with 48 samples.

Results

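The comparison described here set dKO-8M cells against dKO-8 cells while both were exposed to SNX631, an inhibitor of the Mediator kinases CDK8 and CDK19. It used 6 of the 48 RNA-Seq libraries of the series, the 3 replicates of each derivative in FBS (fetal bovine serum) medium, chosen by their labels alone. Both derivatives come from 22Rv1, a human castration-resistant prostate cancer line, by way of cells in which CDK8 and CDK19 had been knocked out with CRISPR/Cas9 (Rv1-dKO) and which then received an empty lentiviral vector (dKO-V). From dKO-V, dKO-8 was made by lentiviral expression of human wild-type CDK8, and dKO-8M by expression of the kinase-dead mutant CDK8-D173A. Both derivatives received 500 nM SNX631 for 72 hours. For comparison, the same derivatives under vehicle (0.1% DMSO, 72 hours, 6 libraries) and the corresponding pair that re-expressed CDK19, dKO-19M (kinase-dead) and dKO-19 (wild-type), under SNX631 (6 libraries) were examined. The CDK19 pair was made from Rv1-dKO directly, without passing through dKO-V. The FBS libraries of this pair and of Rv1-WT (parental 22Rv1) and Rv1-Luc (a luciferase-expressing subline), neither of the latter carrying the knockout, gave the reference levels of other lines used further on. Each genotype is represented by a single derivative, so that an effect of the mutation that does not depend on catalysis and any other difference between the derived cell populations cannot be told apart. Kinase activity remaining in dKO-8 under SNX631 was not measured in these libraries and cannot be told apart from these either. The study's methods call the RNA-Seq replicates biological but do not say whether each was a separate culture, and the p-values measure only the spread between these samples.

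CDK8 and CDK19 are paralogs that associate with cyclin C, MED12 and MED13 to form the kinase module of Mediator, the complex that links transcription factors to RNA polymerase II. They phosphorylate transcription factors and other nuclear proteins and can raise or lower the transcription of genes whose expression is being reprogrammed. The catalytic aspartate of the DMG motif is required to bind the magnesium that positions ATP, and its replacement by alanine leaves a protein that can enter the complex but cannot phosphorylate. With an inhibitor present in both derivatives, the comparison asks which expression differences between kinase-dead and active CDK8 cells are still found under the drug.

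The mutated residue lies in exon 6 of CDK8, at chr13:26385213-26385215 on the plus strand of GRCh38, and the reference codon is shown here in capitals within its coding context because it is the designed difference between the derivatives.
CDK8 codon 173, reference: gtaaaaattgctGACatgggctttgcccga
D173A replaces the aspartate encoded by these capitals. The deposited gene counts do not tell the mutant from the wild-type transcript.

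The transcripts of the kinases were examined first. CDK8 (ENSG00000132964.13) was at 67.4, 64.7 and 60.5 CPM in the 3 dKO-8 libraries under SNX631 and at 133, 134 and 127 CPM in those of dKO-8M, where CPM are counts scaled to a common library size of 1 M after TMM normalization. The groups did not overlap, and the difference was 1.03 ± 0.04 (SE) on the log2 scale (adjusted p = 5.82e-27). The dKO-19 and dKO-19M cells, which received no CDK8, had 24.9 to 27.2 CPM of it, the level measured without a CDK8 vector. CDK19 was at 135, 125 and 124 CPM in dKO-8 and at 124, 123 and 125 CPM in dKO-8M, a difference of -0.05 ± 0.04 that did not pass the test (adjusted p = 0.493). The derivatives compared thus differed in CDK8 transcript level as well as in its coding sequence, and the part of this level in the results below was not tested.

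The 6 libraries held 20.3 to 26.1 M counts. Replicate pairs of the 6 groups examined differed by more than sampling noise, with a chi-square of 1.28 to 3.46 per degree of freedom. The luminal prostate markers KRT8, KRT18, HOXB13, FOXA1, TMPRSS2, FOLH1, STEAP2 and EPCAM were all detected, and KLK3, the gene of prostate-specific antigen, was low at 0.570 to 1.91 CPM. Of 3 marker lists of other cell types, the summed counts of the plasma cell list were 3990 to 4681 in dKO-8 and 4023 to 4960 in dKO-8M, those of the haematopoietic list 364 to 484 and 402 to 531, and those of the fibroblast and endothelial list 192 to 264 and 173 to 208. Respectively 7, 3 and 2 genes of these lists had no count in any of the 6 libraries.

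Under SNX631, 1010 of 20009 genes tested (5.05%) differed between dKO-8M and dKO-8 by more than 1.5-fold with an adjusted p (false discovery rate, FDR) below 0.01, the limits for every call given here. Of these, 463 (2.31%) were higher and 547 (2.73%) lower in dKO-8M. The groups of 3 libraries did not overlap for 1000 of the 1010 called genes, against 41.1% of all genes tested. The median absolute difference was 1.02 on the log2 scale among called genes and 0.15 among all genes, and 147 called genes differed by more than 4-fold (63 higher, 84 lower). The 5 called genes closest to the fold limit differed by 0.585 to 0.586 on the log2 scale, and the 5 with the same FDR closest to it on the other side by 0.581 to 0.585. With a test against a 1.5-fold difference, in place of a limit on the estimate, 370 genes were called.

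The lowest p-values belonged to genes expressed in both derivatives. CAPN2 (chr1:223701593-223776018), the catalytic subunit of the calcium-dependent protease calpain 2, was at 183, 180 and 184 CPM in dKO-8 and at 14.04, 14.4 and 15.8 CPM in dKO-8M. Every dKO-8 library was far above every dKO-8M library, and the difference was -3.63 ± 0.07 on the log2 scale (adjusted p = 3.82e-46). NAMPT (chr7:106248285-106286326), the rate-limiting enzyme of NAD salvage from nicotinamide, was at 419, 415 and 409 CPM in dKO-8 and at 180, 183 and 190 CPM in dKO-8M (-1.17 ± 0.04, adjusted p = 3.28e-34). The other genes of this set were higher in dKO-8M, again with no overlap between groups. FAM110B, which encodes a centrosome-associated protein, was at 27.9, 29.1 and 34.1 CPM in dKO-8 and at 129, 127 and 123 CPM in dKO-8M (2.06 ± 0.06, adjusted p = 2.41e-37). CNN3 (chr1:94896949-94927278), the actin-binding protein calponin 3, was at 56.2, 55.9 and 55.0 CPM in dKO-8 and at 152, 158 and 154 CPM in dKO-8M (1.47 ± 0.05, adjusted p = 1.83e-33). ARSJ (chr4:113900284-113979727), a member of the arylsulfatase family, rose from 21.5 ± 0.51 CPM in dKO-8 to 80.8 ± 3.1 CPM in dKO-8M (SD, n = 3), a difference of 1.91 ± 0.06. EPDR1 (chr7:37683843-37951941), an ependymin-related lysosomal protein, was at 15.3, 16.1 and 15.4 CPM in dKO-8 and at 52.9, 51.4 and 53.8 CPM in dKO-8M (1.76 ± 0.06).

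**Figure D1:**
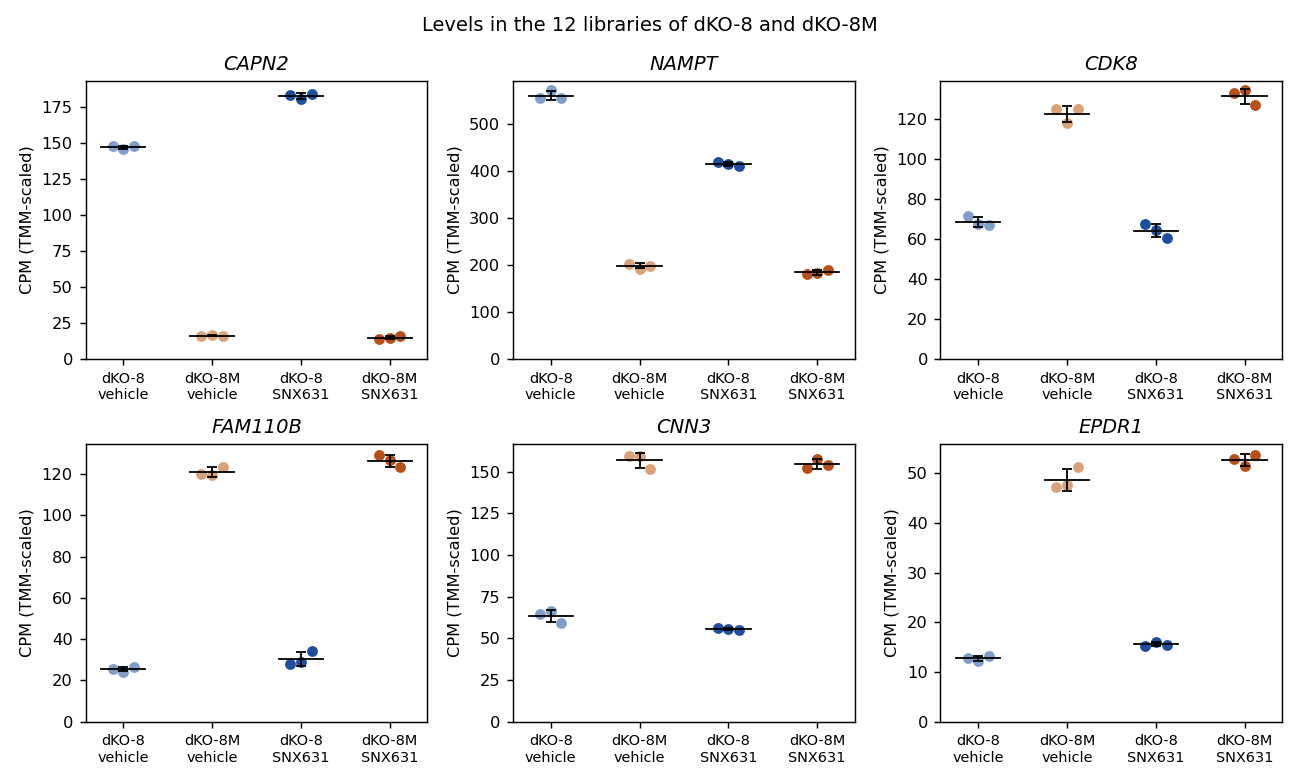
Levels of 6 genes in CPM (vertical axes, from 0) in the 3 libraries of each of 4 groups (points), with the mean (line) and the SD of 3 libraries (bars). CAPN2 and NAMPT are lower in dKO-8M, and CDK8, FAM110B, CNN3 and EPDR1 are higher, both under vehicle and under SNX631.

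These differences were of like size under vehicle, in libraries not shared with the comparison under SNX631, as the plot of single libraries shows. CAPN2 differed by -3.17 ± 0.06, NAMPT by -1.50 ± 0.04, FAM110B by 2.25 ± 0.06, CNN3 by 1.31 ± 0.05, ARSJ by 2.17 ± 0.06 and EPDR1 by 1.93 ± 0.06. In NAMPT the gap under SNX631 was smaller by 0.33 ± 0.05 (adjusted p = 3.17e-06 for the interaction) and in CAPN2 larger by 0.46 ± 0.10 (adjusted p = 0.000772), both under the 1.5-fold limit.

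For 55 called genes, all 3 libraries of a derivative held at most 3 counts, and the difference is then given as a lower bound against 3 counts per library. The dKO-8M libraries were at this floor for 35 of them and the dKO-8 libraries for 20. HEY2 (chr6:125747664-125761269), a transcriptional repressor downstream of Notch, had 174, 181 and 129 counts in dKO-8 and 1, 2 and 1 in dKO-8M, which is at least 49.8-fold lower (adjusted p = 2.73e-20). CEACAM6, a cell adhesion glycoprotein of epithelial cells, was at least 8.24-fold lower, CACNG2, a regulatory subunit of glutamate receptors and calcium channels, at least 7.14-fold lower, and KIT, the receptor of stem cell factor, at least 5.65-fold lower. CACNG2 counts were fractional in 58.3% of the 12 libraries of these derivatives, as can arise where reads are divided between genes, and its level is uncertain. In the opposite direction, IFT57 (chr3:108160812-108222570), a component of intraflagellar transport, had 1, 2 and 3 counts in dKO-8 and 59, 64 and 56 in dKO-8M, at least 21.2-fold higher (adjusted p = 8.54e-21). PAX1, a paired-box transcription factor, was at least 18.3-fold higher, CAPN13, a calpain family protease, at least 9.28-fold higher, and RUNX1, a runt-domain transcription factor, at least 7.999-fold higher.

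Among called genes with a mean of at least 1 CPM, the widest differences toward lower levels in dKO-8M were, after HEY2, in GRIK3 and CAPN2. GRIK3, a kainate-type glutamate receptor subunit, was at 9.66, 11.1 and 8.77 CPM in dKO-8 and at 0.132, 0.208 and 0 CPM in dKO-8M (-6.29 ± 0.30). The scaffold gene USH1C (-3.29 ± 0.37), the small chaperone CRYAB (-3.17 ± 0.31), the adhesion receptor ADGRB1 (-2.85 ± 0.27), the signalling adaptor EFS (-2.81 ± 0.23), the proteoglycan VCAN (-2.66 ± 0.33), CCDC160 (-2.58 ± 0.34) and the antisense gene ALDH1A3-AS1 (-2.69 ± 0.26) were also lower. Toward higher levels, RFX6, a transcription factor of endocrine development, was at 0.274, 0.291 and 0.189 CPM in dKO-8 and at 5.13, 5.15 and 4.20 CPM in dKO-8M (4.22 ± 0.26). The calcium sensor DOC2B (4.20 ± 0.25), the teneurin TENM4 (4.18 ± 0.41), the G protein regulator RGS16 (3.07 ± 0.20), the fibrillin FBN2 (2.71 ± 0.29), the antisense gene TRG-AS1 (2.65 ± 0.30) and C2CD2 (2.65 ± 0.26) were higher. RPL23AP2, a ribosomal protein pseudogene, rose by 4.86 ± 0.24, but pseudogenes and antisense genes share sequence or locus with other genes and their values are uncertain, since the strand setting of the counting is not given in the sources used here. All these genes also passed the limits under vehicle, in the same direction.

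Genes of the prostate lineage moved both ways. Of 25 tested genes of an androgen response list, 5 were higher and 4 lower in dKO-8M (36.0%, against 5.05% of all genes), and the list median was -0.04. SLC45A3 (prostein) rose by 1.12 ± 0.09, the kallikrein KLK4 by 1.10 ± 0.11 and the metalloreductase STEAP2 by 1.02 ± 0.06. ABCC4, a membrane efflux pump, rose by 0.90, and FKBP5, a co-chaperone of steroid receptors, fell by 0.67 on the log2 scale, both named after their values were seen. EAF2, an elongation factor, fell by 1.20 on the log2 scale, and by 0.99 without dKO-8M replicate 2, when it was no longer called. KLK4 counts were fractional in 58.3% of the 12 libraries and its level is uncertain. KLK3 was at 1.06, 1.91 and 1.23 CPM in dKO-8 and at 0.570, 0.706 and 1.28 CPM in dKO-8M. These libraries overlapped, and the difference of -0.75 ± 0.27 did not pass (adjusted p = 0.0384), whereas under vehicle it was -2.25 ± 0.26. The change of the KLK3 difference with SNX631, 1.50 ± 0.40, had an adjusted p of 0.0106, just over the limit.

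Of 18 cell surface antigens of prostate cancer tested, 3 were higher and 2 lower in dKO-8M (27.8%), with a list median of -0.07. FOLH1, which encodes prostate-specific membrane antigen, was at 6.81, 4.90 and 6.13 CPM in dKO-8 and at 15.7, 15.7 and 16.4 CPM in dKO-8M (1.42 ± 0.10, adjusted p = 5.33e-18). STEAP1 was at 36.9, 31.5 and 31.5 CPM in dKO-8 and at 80.9, 87.8 and 85.2 CPM in dKO-8M (1.34 ± 0.06). PSCA, prostate stem cell antigen, went the other way, from 106, 109 and 106 CPM in dKO-8 to 45.3, 43.6 and 48.8 CPM in dKO-8M (-1.22 ± 0.13). Each of these groups was free of overlap. Of 15 luminal transcription factors, SPDEF (-0.76 ± 0.05) and GATA3 (-2.13 ± 0.46) were lower. Of 19 neuroendocrine and secretory genes, 4 were lower (21.1%, against 2.73% of all genes) and none was higher, with a median of -0.14 and 12 below 0. The summed level of the list was nevertheless higher in dKO-8M, at 1344, 1345 and 1320 CPM against 1194, 1190 and 1202 CPM in dKO-8. The secreted granule protein VGF fell from 71.5 ± 2.0 to 36.2 ± 3.0 CPM (-0.98 ± 0.06), the calcium-binding protein SCGN from 4.45 ± 0.58 to 1.19 ± 0.12 CPM (-1.89 ± 0.20), the prohormone convertase PCSK1 by 1.86 and the decarboxylase DDC by 1.39 on the log2 scale. Without dKO-8 replicate 3, GATA3 (-1.64) and PCSK1 (-1.47) were no longer called.

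Signalling and structural lists held calls in both directions or toward lower levels only. The percentages of list genes called stand against 5.05% of all genes tested (2.31% higher, 2.73% lower). Of 29 Wnt pathway genes, 3 were higher and 2 lower. The Wnt antagonist DKK1 rose from 2.12 ± 0.15 to 9.30 ± 0.63 CPM (2.14 ± 0.17), the ligand WNT3 by 0.94 and, named after its value was seen, the transcription factor TCF7L1 by 0.68, while the ligand WNT5A (-3.30 ± 0.39) and the receptor FZD4 (-1.04 ± 0.15) fell. Of 26 junction and mesenchymal genes, the desmosomal plakophilin PKP1 (1.07 ± 0.14) and N-cadherin, CDH2 (0.83 ± 0.23), were higher. Vimentin, VIM (-1.27 ± 0.16), claudin 7, CLDN7 (-1.10 ± 0.05, fractional counts in 66.7% of the 12 libraries), and collagen COL1A1 (-0.74 ± 0.16) were lower. CDH2 was not called without dKO-8M replicate 2, dKO-8 replicate 1 or dKO-8 replicate 2 (0.69 to 0.92 over the libraries left out in turn). Of 12 genes of the EGF family, EGF itself was the only call, at 2.23, 1.70 and 2.26 CPM in dKO-8 and 0.483, 0.291 and 0.307 CPM in dKO-8M (-2.49 ± 0.29). Of 32 interferon response genes, 4 were lower, with OAS1 at least 5.32-fold lower and IFI35, ISG20 and IRF7 lower by 1.76, 1.18 and 0.92 on the log2 scale, and the transcription factor IRF1 was higher by 0.61 (named after its value was seen). Of 29 AP-1 and immediate early genes, 4 were lower and none higher: IER3 (-1.36 ± 0.28), EGR1 (-0.66 ± 0.20), DUSP6 (-0.64 ± 0.19) and FOSL2 (-0.62 ± 0.08). The EGR1 libraries overlapped, and with single libraries left out in turn EGR1 (-0.87 to -0.43) lost its call in 4 of 6 cases, DUSP6 (-0.77 to -0.57, fractional counts in 83.3% of the 12 libraries) in 5 of 6, IRF1 (0.53 to 0.70) in 4 of 6, and FOSL2 (-0.58) and TCF7L1 (0.54) without dKO-8M replicate 2. Of 22 imprinted genes, 4 were lower, namely the growth factor IGF2 (-2.49 ± 0.35), the noncoding RNA H19 (at least 1.92-fold lower), PEG3 (-0.68 ± 0.16) and the cell cycle inhibitor CDKN1C (-0.66 ± 0.09). IGF2 counts were fractional in 58.3% of the 12 libraries, H19 was not called without dKO-8M replicate 1 or 2, and PEG3 (-0.76 to -0.54) not without dKO-8M replicate 2 or dKO-8 replicate 1.

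Of 33 hypoxia and glycolysis genes, the phosphofructokinase PFKP (1.21 ± 0.11) and the lipase inhibitor ANGPTL4 (0.86 ± 0.13) rose and NDRG1 fell (-0.64 ± 0.15). Of 21 NRF2 antioxidant genes, the quinone reductase NQO1 (-0.74 ± 0.10), also the only call among 9 aryl hydrocarbon receptor genes, and the haem oxygenase HMOX1 (-0.63 ± 0.15) fell. Single calls were the cell division kinase CDK1 of 28 cell division genes (0.61 ± 0.04), the coat protein SEC24D of 25 endoplasmic reticulum folding genes (-0.71 ± 0.07), the acyl-CoA synthetase ACSL4 of 19 fatty acid genes (-0.61 ± 0.16), the apoptosis inhibitor BIRC3 of 15 NF-kappaB genes (-0.89 ± 0.18), thrombospondin 1, THBS1, of 28 SMAD signalling genes (1.07 ± 0.16), the glucuronosyltransferase UGT2B11 of 13 androgen synthesis genes (-1.86 ± 0.53) and the antigen MAGEC2 of 18 cancer-testis genes (3.67 ± 0.43). Of 34 HOX genes, HOXB4 was higher (0.61 ± 0.17) and HOXA10 (-0.83 ± 0.09) and HOXA11 (-1.07 ± 0.30) lower, and of 50 clustered protocadherins PCDHB6 was higher (0.89 ± 0.18) and PCDHB5 lower (-2.002 ± 0.46). With single libraries left out in turn, calls were lost in 5 of 6 cases for UGT2B11 (-3.11 to -1.27), 4 of 6 for ACSL4 (-0.68 to -0.49) and HOXA11 (-1.38 to -0.87), 3 of 6 for HMOX1 (-0.80 to -0.55), 2 of 6 for HOXB4 (0.50 to 0.68), and for PCDHB5 without dKO-8 replicate 2 (-1.67). PFKP and ACTA2 counts were fractional in 50% of the 12 libraries. CDK8 was the only call among 7 kinase module genes. In 9 lists with 192 tested genes, edgeR called 0 genes, 76 had an unadjusted p under 0.05 (against 31.9% of all genes tested), and DESeq2 called 1, a keratin. These were core Mediator (26 genes, median -0.01), heat shock proteins (19, 0.06), sterol synthesis (28, -0.10), MYC targets and ribosome biogenesis (30, 0.11), DNA replication (30, 0.01), keratins (8, -0.56), metallothioneins (9, -0.04), the respiratory chain (32, 0.10) and the plasma cell list (10, 0.00). All 8 keratins were below 0, with KRT18 at -0.30 (adjusted p = 1.19e-07). In the other marker lists, CSF1R was lower (-1.44 ± 0.31) of 7 haematopoietic genes, and COL1A1 was lower (-0.74 ± 0.16) and ACTA2 higher (0.65 ± 0.14) of 7 fibroblast and endothelial genes.

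The same pair under vehicle gave 1406 called genes (7.03%), 591 higher and 815 lower in dKO-8M. The comparisons share no library. Of the 1010 genes called under SNX631, 683 (67.6%) were called in the same direction under vehicle, which is 48.6% of the vehicle calls: 307 were higher and 376 lower in both. A further 326 were called only under SNX631 and 722 only under vehicle. Of the genes called under SNX631, 973 (96.3%) had the same sign under vehicle. PLCD4, a phospholipase C isoform named after its values were seen, was the single gene called in opposite directions, at 5.02 ± 0.25 CPM in dKO-8 against 3.27 ± 0.17 in dKO-8M under SNX631 and at 2.02 ± 0.33 against 3.25 ± 0.50 under vehicle, and it was not called under SNX631 without dKO-8M replicate 2, dKO-8M replicate 3 or dKO-8 replicate 2 (-0.64 to -0.57). Across the 1732 genes called in either, the log2 differences had Pearson's r = 0.83, Spearman's rho = 0.82 and a slope of 0.76, given as a description since genes are not replicates and each pair shares its derivatives. Over all genes tested, r was 0.50.

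**Figure D2:**
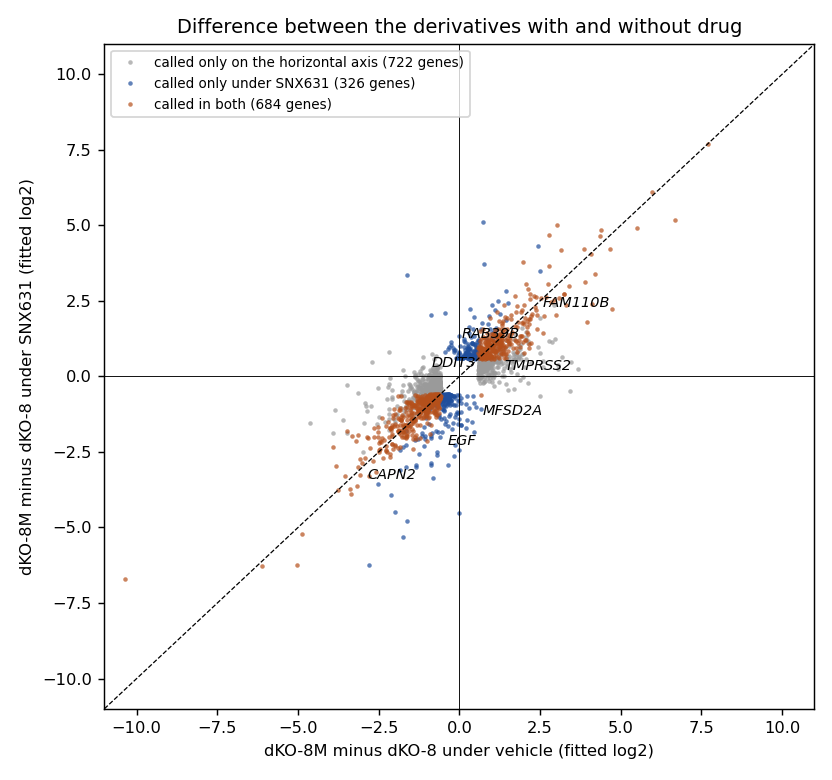
Fitted log2 difference between dKO-8M and dKO-8 under SNX631 (vertical axis) against that under vehicle (horizontal axis) for the 1732 genes called in either, by where they were called. As a set, the 684 genes called in both follow the dashed line of equality (r = 0.96, slope 0.90). Of them, 24 called in the same direction and 1 called in opposite directions passed the interaction test. DDIT3 and TMPRSS2 lie off the line near 0 on the vertical axis, and MFSD2A, EGF and RAB39B, which were not called under vehicle, lie off it farther from 0 on the vertical than on the horizontal axis. Values of genes at the floor depend on the prior count of the fit.

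To ask which of these differences changed with the drug, the interaction was tested for each gene. It passed for 181 genes (0.905%), 111 (0.555%) with a more positive and 70 (0.35%) with a more negative dKO-8M to dKO-8 difference under SNX631. With library size as the only scaling these numbers were 86 and 81. A fit of only the libraries compared gave 299 calls (170 and 129), and a test against a 1.5-fold change gave 11. The absolute difference was smaller under SNX631 in 135 of the 181 genes and larger in 46. Of the 181, 93 were called under vehicle and not under SNX631 (65 of them lower in dKO-8M under vehicle), 31 under SNX631 and not under vehicle, 25 in both and 32 in neither. Of the 722 genes called only under vehicle, 93 passed the interaction test, and for the others a change of the difference with treatment was not shown. Set against vehicle within each derivative, SNX631 changed 342 genes (1.71%) in dKO-8, 131 higher (0.655%) and 211 lower (1.05%), and 3 genes, all lower (0.015%), in dKO-8M. These comparisons share libraries with the interaction and are given side by side only.

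The clearest loss of a difference was in DDIT3, the stress transcription factor CHOP. Under vehicle it was at 57.0, 60.1 and 58.1 CPM in dKO-8 and at 25.3, 25.04 and 26.8 CPM in dKO-8M (-1.19 ± 0.06, adjusted p = 3.26e-25). Under SNX631 it was at 21.5, 21.6 and 20.6 CPM in dKO-8 and at 21.5, 23.2 and 22.2 CPM in dKO-8M (0.07 ± 0.06, adjusted p = 0.520). The 6 libraries under the drug thus lay together, below all vehicle libraries, and the interaction was 1.25 ± 0.09 (adjusted p = 7.86e-17). DDIT3 counts were fractional in 50% of the 12 libraries. GPT2, an alanine transaminase, kept a smaller gap in the same direction under SNX631. It was at 250.1 ± 2.8 CPM in dKO-8 and 138 ± 2.7 CPM in dKO-8M under vehicle and at 137 ± 1.7 and 125 ± 2.2 CPM under SNX631 (interaction 0.72 ± 0.06). TRGC1 and TARP, which overlap at the T cell receptor gamma locus and share reads (fractional counts in 100% and 91.7% of the 12 libraries), had interactions of 0.84 ± 0.06 and 0.88 ± 0.06.

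Genes that were higher in dKO-8M under vehicle lost their difference in the other direction. TMPRSS2, an androgen-regulated serine protease, was at 8.06, 8.94 and 7.37 CPM in dKO-8 and at 15.9, 17.3 and 17.2 CPM in dKO-8M under vehicle. Under SNX631 it was at 21.3, 19.7 and 18.7 CPM in dKO-8 and at 19.3, 19.3 and 19.5 CPM in dKO-8M (-0.04 ± 0.07, adjusted p = 0.750), and these groups overlapped (interaction -1.09 ± 0.11, adjusted p = 1.13e-10). SFN, which encodes 14-3-3 sigma, differed by 0.86 ± 0.05 under vehicle and 0.19 ± 0.04 under SNX631. HES7, a bHLH repressor, kept its call with a smaller gap, 1.45 ± 0.06 under vehicle and 0.60 ± 0.06 under SNX631, the latter lost with library size scaling and without dKO-8M replicate 1 or dKO-8 replicate 1 (0.58).

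MFSD2A, RAB39B and EGF, all called in the interaction, passed the limits under SNX631 and not under vehicle. MFSD2A, a sodium-dependent lysophospholipid transporter, was at 15.6, 14.2 and 15.02 CPM in dKO-8 and at 20.7, 19.2 and 18.4 CPM in dKO-8M under vehicle. Under SNX631 the dKO-8 libraries stood at 41.0, 40.0 and 40.8 CPM and those of dKO-8M at 14.1, 14.4 and 13.9 CPM. The difference was -1.52 ± 0.08 under the drug, and the interaction of -1.91 ± 0.11 (adjusted p = 2.00e-19) was the widest of the 10 named for this test. LPCAT3, a lysophosphatidylcholine acyltransferase, differed by 0.31 ± 0.05 under vehicle and -0.33 ± 0.05 under SNX631, opposite in sign and under the fold limit in both. RAB39B, a small GTPase, was at 14.7, 14.96 and 14.6 CPM in dKO-8 and 12.3, 11.9 and 12.8 CPM in dKO-8M under vehicle. Under SNX631 it was at 4.89, 5.85 and 6.22 CPM in dKO-8 and 11.01, 11.6 and 12.3 CPM in dKO-8M (1.04 ± 0.10, interaction 1.30 ± 0.13). EGF differed by -0.71 ± 0.30 under vehicle (adjusted p = 0.0625), with an interaction of -1.79 ± 0.44. SNX631 against vehicle differed for MFSD2A by 1.44 in dKO-8 and by -0.47 in dKO-8M on the log2 scale, the latter without overlap of the libraries but under the fold limit. For RAB39B these values were -1.39 and -0.08.

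ATF4 is a transcription factor that is translated when amino acids or protein folding fail, and its targets supply and activate amino acids and include DDIT3. A list of 45 such genes, all of them tested, had under vehicle 20 lower and no higher members in dKO-8M, against 4.07% of all genes lower, with a median difference of -0.58. Under SNX631, DDIT4, an inhibitor of mTORC1 signalling (-0.83 ± 0.11), and GDF15, a stress cytokine (-0.67 ± 0.13), were lower and none was higher. This was 4.44% of the list, against 5.05% of all genes called, and the list median was -0.01. Below 0 were 40 of the 45 genes under vehicle and 24 under SNX631. The interaction passed in 12 of the 45, all toward a more positive difference, against 0.555% of all genes in that direction. The DDIT4 difference was itself narrower under the drug, with 121 ± 4.3 CPM in dKO-8 and 38.3 ± 1.1 CPM in dKO-8M under vehicle and 54.05 ± 1.2 and 30.4 ± 1.2 CPM under SNX631 (interaction 0.84 ± 0.15). GDF15 kept its gap, at -0.78 ± 0.13 under vehicle. The counts under vehicle were known when the list was compiled and are not independent evidence of its direction. In dKO-19M against dKO-19 under SNX631, 4 genes of the 45 were higher and none lower, against 3.14% and 4.04% of all genes, with a median of 0.32.

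**Figure D3:**
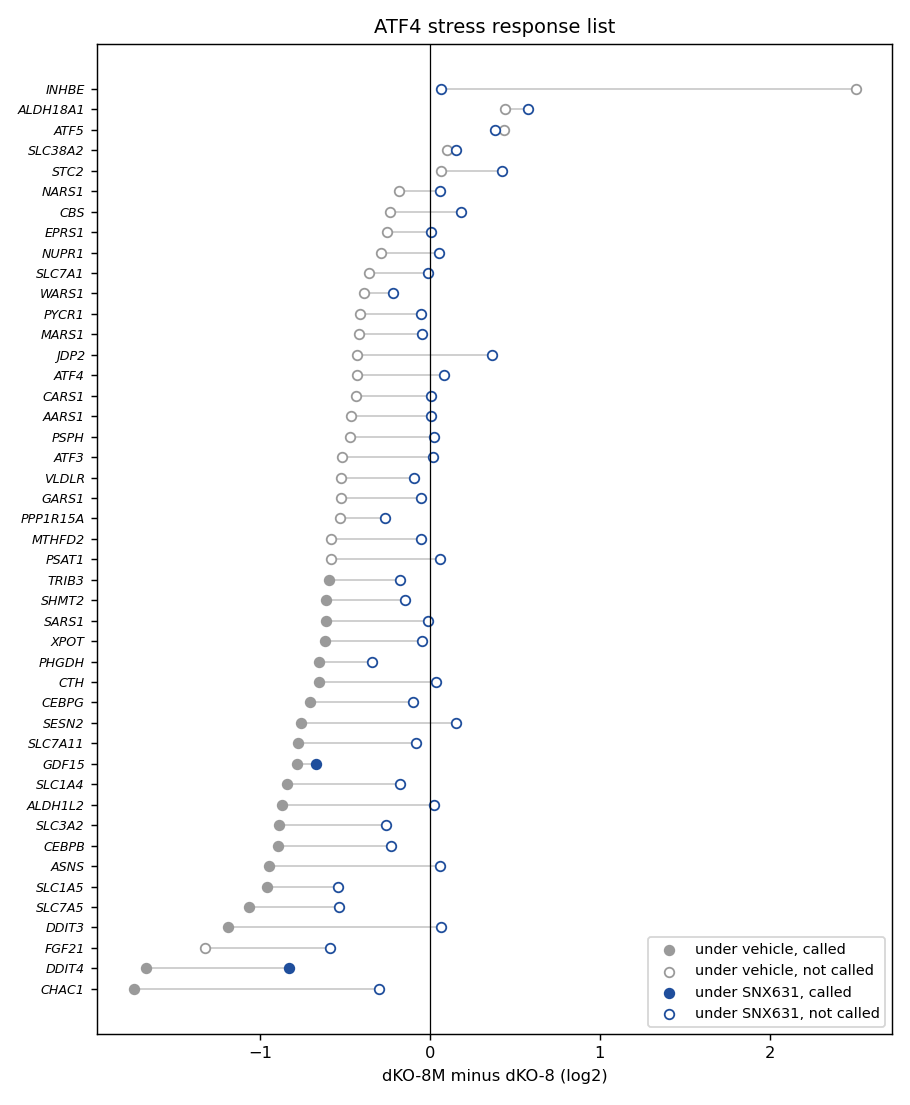
Log2 difference between dKO-8M and dKO-8 (horizontal axis) for each of the 45 genes of the ATF4 stress response list, under vehicle (grey) and under SNX631 (blue), with filled points where the gene was called. The vehicle points lie mostly left of 0 (median -0.58) and the SNX631 points around 0 (median -0.01), with DDIT4 and GDF15 the only filled blue points.

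The promoters of the list were searched on both strands for the letters TGATGNAA, the composite site that ATF4 binds together with C/EBP proteins, in 300 bases around each start (250 before and 50 after, RefSeq, GRCh38.p14). It occurred in 10 of the 38 promoters matched (26.3%), against 3.67% of 27305 promoters of the same length, and in 3 of the 17 promoters matched of genes called lower under vehicle. The list was compiled from ATF4 targets, so its higher share does not bear on these data. A match is a description and not a site of binding. CHAC1, a glutathione-degrading enzyme, and ASNS, asparagine synthetase, are shown as the widest vehicle differences (-1.74 and -0.95) among these 3, with the match in capitals, and were picked after their values were seen.
CHAC1, chr15:40953221-40953520, plus strand: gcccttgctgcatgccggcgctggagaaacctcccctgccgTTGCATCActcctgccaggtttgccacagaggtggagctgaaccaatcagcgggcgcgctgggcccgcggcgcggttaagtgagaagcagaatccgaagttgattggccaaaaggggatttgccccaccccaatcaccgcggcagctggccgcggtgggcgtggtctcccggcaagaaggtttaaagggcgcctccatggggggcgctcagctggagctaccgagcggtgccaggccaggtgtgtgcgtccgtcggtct
ASNS, chr7:97872359-97872658, minus strand: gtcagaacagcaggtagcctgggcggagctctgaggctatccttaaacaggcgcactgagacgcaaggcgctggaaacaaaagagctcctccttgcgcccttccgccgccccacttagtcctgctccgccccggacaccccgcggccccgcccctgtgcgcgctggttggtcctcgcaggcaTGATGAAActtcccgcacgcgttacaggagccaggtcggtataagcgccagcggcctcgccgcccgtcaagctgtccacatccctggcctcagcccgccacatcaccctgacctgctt
Counted from the start of the gene, the match begins at base -209 in CHAC1, on the opposite strand, and at base -68 in ASNS. CHAC1 was at 39.9 ± 0.54 CPM in dKO-8 and 11.8 ± 1.2 CPM in dKO-8M under vehicle, and at 12.2 ± 0.47 and 9.82 ± 0.96 CPM under SNX631 (interaction 1.44, adjusted p = 0.000109). ASNS was at 202 ± 4.0 and 105 ± 2.1 CPM under vehicle and at 90.4 ± 0.98 and 94.3 ± 1.3 CPM under SNX631 (interaction 1.01, adjusted p = 2.47e-06).

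The difference between kinase-dead and active CDK19 cells under SNX631 served as the other pair, with no library in common. It gave 1437 called genes (7.18%), 628 higher and 809 lower in dKO-19M. Of the 1010 genes of the CDK8 pair, 229 (22.7%, or 15.9% of the calls of the CDK19 pair) were called in the same direction in both, 98 higher and 131 lower in the kinase-dead cells, and 140 in opposite directions. Of the 1010, 598 (59.2%) had the same sign in the CDK19 pair. Across the 2078 genes called in either pair, Pearson's r was 0.18, Spearman's rho 0.17 and the slope 0.14. Among genes higher in both kinase-dead derivatives were TENM4, at 0.0782, 0.125 and 0.236 CPM in dKO-8 and 2.81, 2.12 and 3.12 CPM in dKO-8M, and at 0.526, 0.429 and 0.871 CPM in dKO-19 and 7.08, 8.10 and 7.45 CPM in dKO-19M. MAGEC2 rose by 3.67 ± 0.43 and 3.74 in the 2 pairs, and CAPN13, RUNX1 and SGIP1, an endocytic adaptor, rose from the floor in dKO-8, SGIP1 at least 7.30-fold. Lower in both were the protease inhibitor TIMP1 (-2.44 ± 0.27 and -3.30) and the apoptotic caspase CASP10 (-2.12 ± 0.28 and -2.17), and from low levels DAPL1 (at least 3.22-fold in the CDK8 pair), IGSF21 (at least 1.55-fold) and the antisense gene UNC5C-AS1 (at least 2.73-fold). In the CDK8 pair UNC5C-AS1 lost its call without dKO-8M replicate 2 or dKO-8 replicate 2, and in the CDK19 pair without dKO-19M replicate 3, while DAPL1 lost its call in the CDK19 pair in 4 of 6 cases.

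**Figure D4:**
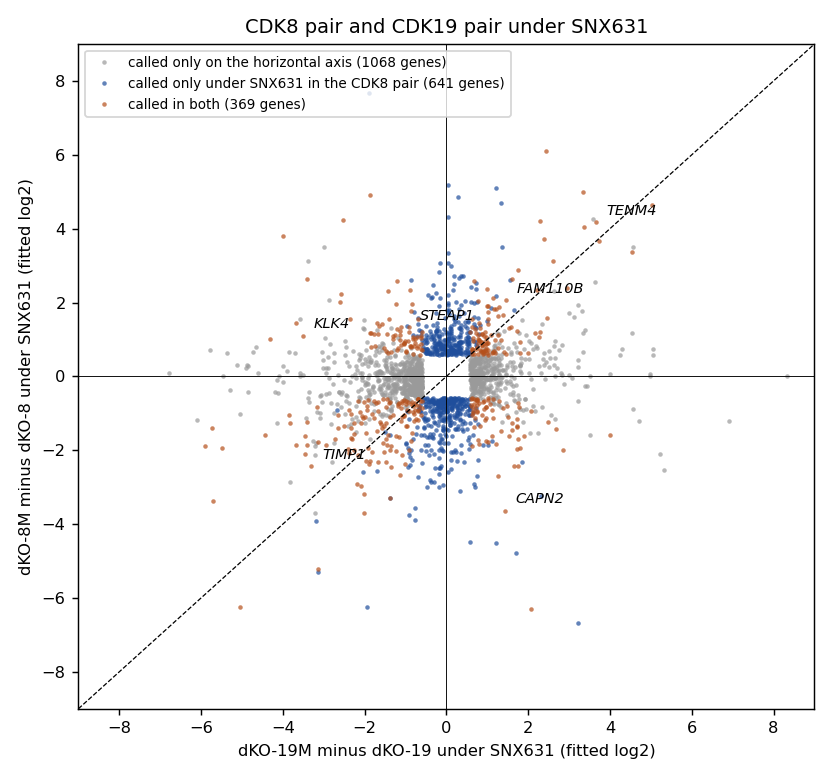
Fitted log2 difference between dKO-8M and dKO-8 (vertical axis) against that between dKO-19M and dKO-19 (horizontal axis), both under SNX631, for the 2078 genes called in either. The points fill all quadrants (r = 0.18), with CAPN2 and KLK4 in opposite quadrants to TENM4, FAM110B and TIMP1, which were changed alike in both pairs. Values of genes at the floor depend on the prior count of the fit.

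The differences of the pairs differed from each other for 1531 genes (7.65%), 767 (3.83%) more positive and 764 (3.82%) more negative in the CDK8 pair. CAPN2 was at 24.5, 22.7 and 23.3 CPM in dKO-19 and at 63.4, 62.4 and 63.0 CPM in dKO-19M, a difference opposite to that of the CDK8 pair, and the difference of differences was -5.05 ± 0.09 (adjusted p = 6.40e-46). KLK4 was at 39.2, 39.5 and 45.4 CPM in dKO-19 and 4.47, 3.23 and 3.29 CPM in dKO-19M, against 5.63, 6.06 and 6.32 CPM in dKO-8 and 13.4, 12.4 and 12.8 CPM in dKO-8M (4.61 ± 0.16). STEAP1 likewise was lower in dKO-19M (-0.92) and higher in dKO-8M, and so was the antiproliferative gene BTG1 (-0.81 in the CDK19 pair, 0.60 ± 0.04 in the CDK8 pair). NAMPT (-1.17 in the CDK8 pair) stood at 0.34 in the CDK19 pair, under the fold limit, and the transcription factor NFIX was lower in dKO-8M (-0.79 ± 0.05) and higher in dKO-19M (1.48). BTG1 was at 0.58, just under the fold limit, without dKO-8M replicate 1 or dKO-8 replicate 3, and under it with library size scaling.

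To see which derivative stood apart, the mean log2 level of each was set against the range of the means of Rv1-WT, Rv1-Luc, dKO-19 and dKO-19M under SNX631 in FBS. Of the 1010 called genes, dKO-8 alone lay outside this range for 316 (31.3%), dKO-8M alone for 252 (24.95%), both for 191 (18.9%) and neither for 251 (24.9%). Over all genes tested these shares were 16.3%, 13.5%, 22.1% and 48.1%. Without Rv1-WT and Rv1-Luc, which leaves a narrower range, dKO-8 alone was outside for 251 of the called genes, dKO-8M alone for 158, both for 539 (53.4%) and neither for 62, and both were outside for 51.0% of all genes tested. Genes were called because the derivatives differed, so the shares are a description. CAPN2 had means of 11.4 to 63.0 CPM in the other 4 lines, so that dKO-8 at 182 ± 2.0 CPM lay outside and dKO-8M at 14.7 ± 0.91 CPM inside. NAMPT was likewise outside in dKO-8 alone (153 to 253 CPM in the other lines), and so was FAM110B (56.7 to 156 CPM). EPDR1 lay below the other lines (72.5 to 109 CPM) in both derivatives.

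Neighbouring genes shifted together on some chromosomes. The 19321 genes with a position in GENCODE 29 (GRCh38) were divided in chromosome order into 375 runs of 50, and the run medians under SNX631 and under vehicle had a Pearson's r of 0.80 and a Spearman's rho of 0.62. Chromosome 6 had a median difference of -0.20 under SNX631 and -0.22 under vehicle, and chromosome 14 one of 0.17 and 0.19. Chromosome 7 was at -0.10 and -0.08, and the other 20 chromosomes lay between -0.05 and 0.05 under SNX631 and between -0.05 and 0.07 under vehicle. The 10 lowest runs were all on chromosome 6, and 8 of the 10 highest on chromosome 14. On chromosome 6 the first 13 runs, chr6:291630-89118081, had medians of -0.37 to -0.19 under SNX631 and -0.42 to -0.16 under vehicle. The 6 runs beyond had medians of -0.05 to 0.07 under SNX631 and -0.15 to 0.04 under vehicle, so the edge was less sharp under vehicle. On chromosome 14 the first 11 runs had medians of 0.13 to 0.31 under SNX631 and 0.13 to 0.28 under vehicle. These limits were drawn after the medians were seen.

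**Figure D5:**
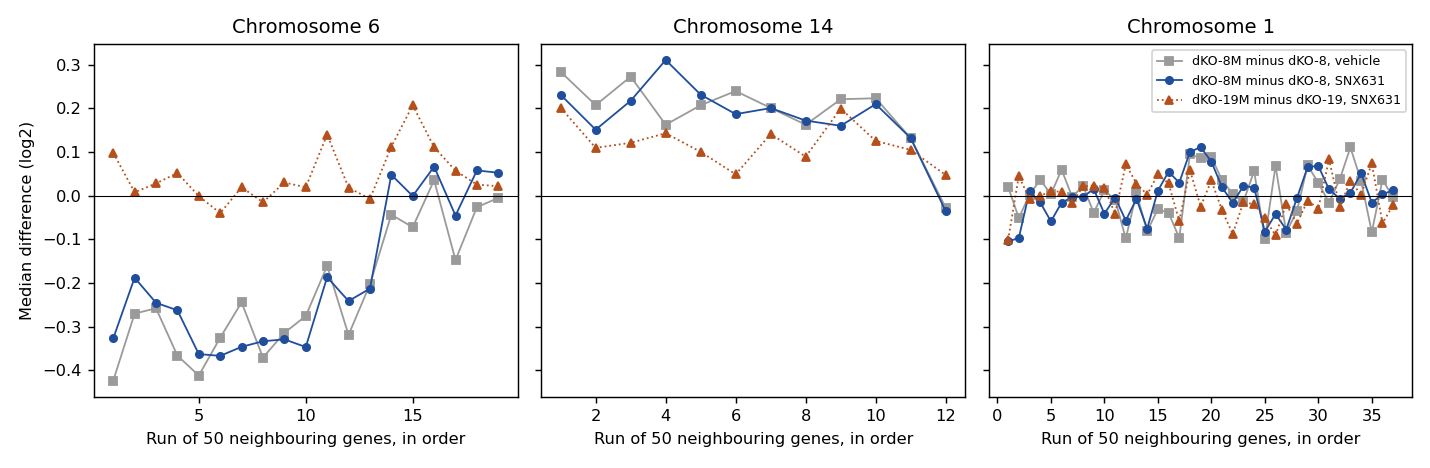
Median log2 difference of consecutive runs of 50 tested genes (vertical axis) in their order along chromosomes 6, 14 and 1 (horizontal axis), for the CDK8 pair under SNX631 and under vehicle and for the CDK19 pair under SNX631. On chromosome 6 the first 13 runs of the CDK8 pair lie below 0 with and without drug and those of the CDK19 pair near it, and on chromosome 14 the first 11 runs of both pairs lie above 0.

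In single libraries, the 371 genes of the first 13 runs of chromosome 6 with at least 5 CPM had a median deviation from their mean over the FBS libraries of -0.22 to -0.20 in the dKO-8M libraries under SNX631 and 0.07 to 0.08 in those of dKO-8, against -0.05 to 0.14 in the 24 FBS libraries of the other 4 lines. On chromosome 14 (351 genes) dKO-8 was at -0.12 to -0.09, below the other 4 lines at -0.07 to 0.09, and dKO-8M at 0.08 to 0.11, which overlapped them. Of the 650 genes of the chromosome 6 region, 49 (7.54%) were called lower and 3 (0.46%) higher, against 2.83% and 2.38% of the genes of all runs. Of the 550 genes of the first 11 runs of chromosome 14, 22 (4%) were called higher and 7 (1.27%) lower. The 3 higher on chromosome 6 were H1-2, SMAP1 and COL12A1, named after their values were seen (0.95, 0.76 and 0.84), of which COL12A1 (0.65 to 0.99) lost its call in 5 of 6 cases with a library left out, by DESeq2 and with library size scaling. The lowest run, chr6:31164337-31972292, held the called genes MICA (-0.87 ± 0.17), a stress ligand of the receptor NKG2D, DDAH2 (-0.63 ± 0.07) and SAPCD1 (-0.60 ± 0.14), with fractional counts in 66.7%, 58.3% and 75% of the 12 libraries. SAPCD1 (-0.71 to -0.49) was not called without replicate 3 of either derivative. The highest run, chr14:35085467-49623481, held the somatostatin receptor SSTR1 (1.74 ± 0.39), the synaptic protein LRFN5 (1.57 ± 0.34) and the mitochondrial carrier SLC25A21 (0.72 ± 0.11). The antigen presentation genes of MHC class I lie partly in the chromosome 6 region. Of 16 tested, 2 were lower and none was higher. Among the former, TAPBP, tapasin, was at 82.4, 83.7 and 80.8 CPM in dKO-8 against 49.7, 52.4 and 47.0 CPM in dKO-8M (-0.73 ± 0.06). The 9 members inside the region were all below 0 with a median of -0.45, and the 7 elsewhere had a median of -0.04, with 4 below 0. The region was drawn from these same differences, with run medians of -0.37 to -0.19, so this contrast and the calls counted within the region are descriptions only.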

How the data were processed

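RNA from 22Rv1 derivatives in culture was sequenced, and 48 libraries of 16 groups of 3 were deposited. The authors deposited 1 table of counts per gene, not scaled to depth, and since 81.6% of its nonzero values are whole and the rest fractional it was treated as estimated counts. The submitters' processing notes name FastQC, cutadapt 2.8, STAR 2.7.2b, featureCounts of Subread 2.0.3 and the builds GRCh38.p13 and GRCm39. The counting strand option and the gene annotation are not given in the sources used here.

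Here the counts were rounded, the 2 transgene rows left out, and 20009 of 61817 entries kept by filterByExpr by group (minimum count 10, minimum total 15). Group means over all 48 libraries were fitted with the robust quasi-likelihood test of edgeR 4.0.16 (R 4.3.3, TMM, 32 residual degrees of freedom, biological coefficient of variation 4.20%), which gives each log2 difference with its standard error (SE) and an adjusted p (Benjamini-Hochberg). Tests were two-sided, and genes were called at FDR under 0.01 and fold change over 1.5. An exact permutation test of 3 against 3 libraries cannot go below 0.1. Totals of the 6 libraries compared were 20.3 to 26.1 M counts (13.2 to 31.5 M in all 48), and precision is that of the spread between replicates. On simulated data for the comparison under SNX631 with 20009 genes, 100 genes were changed 2-fold and 100 were changed 3-fold. They were drawn from genes with a mean of at least 1 CPM. Recovered were 90% and 98%, with 0 false calls. The counts were drawn with the spread fitted here, so this holds for that model only, and recovery of genes at lower levels was not tested. Same-numbered libraries did not pair (see the closing section).

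Named genes were CDK8 and CDK19, the 6 lowest p-values, the 10 widest differences each way among genes with a mean of at least 1 CPM and no overlap, the 4 widest bounds each way for genes at most at 3 counts in a group, up to 4 called members of each of 36 lists, KLK3, DDIT3 and TMPRSS2, the 5 lowest interaction p-values each way, the 5 genes most changed alike and the 3 most different each way between the pairs, and up to 4 called genes of the lowest and highest run. Some genes that this rule names are not reported here. Members and lists were chosen with earlier results of these data known. Positions are from GENCODE 29 and promoters from RefSeq. Alternatives were DESeq2 1.42.0, library size scaling, other filters, only the libraries compared, a replicate block, other limits and leaving out each library.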

Additional observations from a re-analysis of the deposited data

Results flagged for a closer look

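The dKO-8M to dKO-8 difference was not the same under SNX631 as under vehicle by the interaction test of edgeR for 10 named genes. The log2 difference under SNX631 minus that under vehicle was 1.25 for DDIT3, 0.84 for TRGC1, 0.88 for TARP, 0.72 for GPT2 and 1.30 for RAB39B. It was -1.09 for TMPRSS2, -1.91 for MFSD2A, -0.67 for SFN, -0.86 for HES7 and -0.64 for LPCAT3. TRGC1 and TARP overlap and share reads.

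The kinase-dead to active difference of the CDK8 pair was not the same as that of the CDK19 pair under SNX631 for 6 named genes. The difference of the pairs was -5.05 for CAPN2, -1.51 for NAMPT and -2.27 for NFIX, and 4.61 for KLK4, 2.26 for STEAP1 and 1.41 for BTG1. Each derivative is a single line, so the kinase and other differences between lines cannot be told apart.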

How the results depend on the processing

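With a test against a 1.5-fold difference, calls under SNX631, under vehicle, in the interaction, in the CDK19 pair and between the pairs numbered 370, 534, 11, 573 and 582, and at FDR under 0.05 with no fold limit 4537, 6095, 1240, 6144 and 4982. The interaction gave 299 calls with only the libraries compared, and 188 with a replicate block, against 181. Leaving out each library in turn gave 876 to 922, 1238 to 1305, 151 to 162, 1276 to 1318 and 1413 to 1456 calls, in the same order. The agreement with vehicle (r = 0.83) was 0.50 over all genes and 0.96 over genes called in both, and that with the CDK19 pair (r = 0.18) was 0.12 and 0.35. The highest run median was 0.25 with runs of 100 genes. Without Rv1-WT and Rv1-Luc, dKO-8M alone was outside for 158 genes. The difference near 0 of TMPRSS2 changed sign (-0.081 to 0.011 with a library left out). The cause of these changes was not tested.

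The replicate numbers did not pair the libraries: deviations of same-numbered libraries had correlations of -0.11 to 0.01 in 9 pairs, and 1 of 9 was highest with its own number. With the replicate block, calls were 1009, 1402, 188, 1437 and 1542.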
